A study of Mus musculus with 5 samples.

Results

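Cells rich in the transcripts of azurophil granule proteins made up 836 of 21520 cells of bone marrow (BM) from untreated and drug-treated mice. They were chosen by measured values: among barcodes that showed 200 or more genes and had under 20% of their unique molecular identifiers (UMIs) in mitochondrial transcripts, the members were those with Mpo, Elane, Prtn3 and Ctsg together at 1% or more of the UMIs. They were given as granulocyte-monocyte progenitors (GMPs), with Ms4a3 as a marker outside the rule, and are called azurophil-high cells here. The naive library came from untreated mice. The D2 CTX and D7 CTX libraries came from mice given 150 mg/kg of the alkylating agent cyclophosphamide (CTX) into the peritoneum and taken 2 and 7 days later. The study's methods give BALB/c mice of 4 to 8 weeks, red cell lysis, removal of dead cells and equal numbers of cells of 3 mice mixed for each library, while the labels call the cells CD45+ BM mononuclear cells. With 1 pooled library per condition the spread between mice is unknown, no test between conditions was made, and each interval in parentheses is an exact 95% interval that covers counting error only. The study also holds CD11b+Ly6Chi monocytes sorted from BM, 1 naive and 1 CTX library, which were not set beside the whole BM libraries.

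GMPs are committed progenitors of the BM that give rise to neutrophils and monocytes. Azurophil granules are the first granules of the neutrophil lineage and are filled in promyelocytes. Their proteins include myeloperoxidase (Mpo), which makes hypochlorous acid, and the serine proteases neutrophil elastase (Elane), proteinase 3 (Prtn3) and cathepsin G (Ctsg). Specific granule proteins such as Camp, Ngp, Ltf and Lcn2 are made later, in myelocytes. Alkylating agents damage the DNA of dividing cells, and damaged DNA stabilises p53, which switches on genes of cell cycle arrest, repair and cell death.

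The 4 genes of the rule and Cdkn1a and Ccng1, which were among the 3 highest genes at day 2, are shown with the sequence before their start sites, because the first set chose the cells and the other 2 followed Phlda3, the highest gene at day 2. In GRCm38, Elane (ENSMUSG00000020125) lies at chr10:79886247-79888215 and Prtn3 (ENSMUSG00000057729) beside it at chr10:79874476-79883174, both on the plus strand, Mpo (ENSMUSG00000009350) at chr11:87793581-87804413 on the plus strand, and Ctsg (ENSMUSG00000040314) at chr14:56099881-56102574 on the minus strand. Promoters were read from RefSeq (GRCm38.p6) as the 250 bases before each start, without the bases that GENCODE M21 places in an exon. The Elane window is chr10:79886062-79886246 on the plus strand, the Prtn3 window chr10:79879417-79879613 on the plus strand and within an intron of a longer Prtn3 transcript, the Mpo window chr11:87793534-87793580 on the plus strand and the Ctsg window chr14:56102575-56102824 on the minus strand. Capitals mark the letters AGGAAGT, which hold the GGAA core bound by factors of the ETS family such as PU.1 (Spi1), and were searched on both strands after the sequences had been seen.
Elane: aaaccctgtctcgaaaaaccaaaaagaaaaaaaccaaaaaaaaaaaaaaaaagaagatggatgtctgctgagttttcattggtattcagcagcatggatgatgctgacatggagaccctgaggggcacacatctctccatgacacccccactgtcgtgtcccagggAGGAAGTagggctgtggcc
Prtn3: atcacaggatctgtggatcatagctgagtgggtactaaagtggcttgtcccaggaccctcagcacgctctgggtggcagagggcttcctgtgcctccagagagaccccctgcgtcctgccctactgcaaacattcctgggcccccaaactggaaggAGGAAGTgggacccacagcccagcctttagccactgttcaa
Mpo: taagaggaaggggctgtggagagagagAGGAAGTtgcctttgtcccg
Ctsg: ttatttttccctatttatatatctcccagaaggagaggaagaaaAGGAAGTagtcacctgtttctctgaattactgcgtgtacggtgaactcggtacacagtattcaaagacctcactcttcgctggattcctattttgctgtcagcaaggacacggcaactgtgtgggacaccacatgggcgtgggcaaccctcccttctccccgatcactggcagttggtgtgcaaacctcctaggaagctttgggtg
The letters begin 84 bases before the start in Elane, 94 in Prtn3, 223 in Mpo and 206 in Ctsg, and are absent from the 250 bases of Ms4a3. Of 32841 promoter windows of 250 bases, 7.69% hold them. A match of letters is a description and no evidence of binding.

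Cdkn1a (ENSMUSG00000023067), the p21 inhibitor of cyclin-dependent kinases, lies at chr17:29090976-29100727 on the plus strand, and Ccng1 (ENSMUSG00000020326), cyclin G1, at chr11:40748552-40755311 on the minus strand. Their windows are chr17:29090729-29090975 and chr11:40755312-40755536, and capitals mark exact matches to the decamer that makes up a p53 response element, searched on both strands.
Cdkn1a: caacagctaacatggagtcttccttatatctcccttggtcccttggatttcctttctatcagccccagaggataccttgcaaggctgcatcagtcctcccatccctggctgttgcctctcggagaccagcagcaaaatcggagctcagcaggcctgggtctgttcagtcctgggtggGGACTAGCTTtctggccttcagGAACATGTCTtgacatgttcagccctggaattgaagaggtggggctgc
Ccng1: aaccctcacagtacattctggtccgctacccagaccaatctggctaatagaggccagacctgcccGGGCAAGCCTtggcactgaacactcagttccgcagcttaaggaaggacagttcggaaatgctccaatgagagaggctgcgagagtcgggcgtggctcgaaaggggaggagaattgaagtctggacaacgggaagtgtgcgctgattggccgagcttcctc
The matches begin 73 and 51 bases before the start shown for Cdkn1a and 185 before that of Ccng1. A further RefSeq start of Cdkn1a has no match in its 250 bases. Mdm2 and Bax each hold 1 match in their 250 bases and Phlda3 holds none, against 7.13% of all promoter windows with at least 1.

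The azurophil-high cells numbered 210 of 7104 kept cells in naive BM, 58 of 6126 in D2 CTX BM and 568 of 8290 in D7 CTX BM. Their share was 2.96% (2.57 to 3.38) in naive, 0.947% (0.720 to 1.22) after 2 days and 6.85% (6.32 to 7.42) after 7 days. On the log2 scale the share at D2 CTX over naive was -1.64 (-2.09 to -1.22) and D7 CTX over naive 1.21 (0.98 to 1.45), with the same naive cells in both ratios. The share of all kept cells also moves with the other cells: B lineage cells, taken as those with at least 3 UMIs of Cd79a, Cd79b, Vpreb3 and Ebf1, were 30.6% of kept cells in naive, 30.7% at D2 CTX and 3.05% at D7 CTX. Of the cells outside gates for B lineage, T/NK and erythroid cells, 6.21% were azurophil-high in naive, 1.92% at D2 CTX and 12.1% at D7 CTX. The T/NK gate took in many D7 CTX cells through Cd3d alone, and with Cd3d not used the shares were 4.76%, 1.55% and 7.16%. The libraries shared 6 (naive and D2 CTX), 15 (naive and D7 CTX) and 10 (D2 CTX and D7 CTX) barcodes of kept cells, and no azurophil-high cell was among them.

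**Figure D1:**
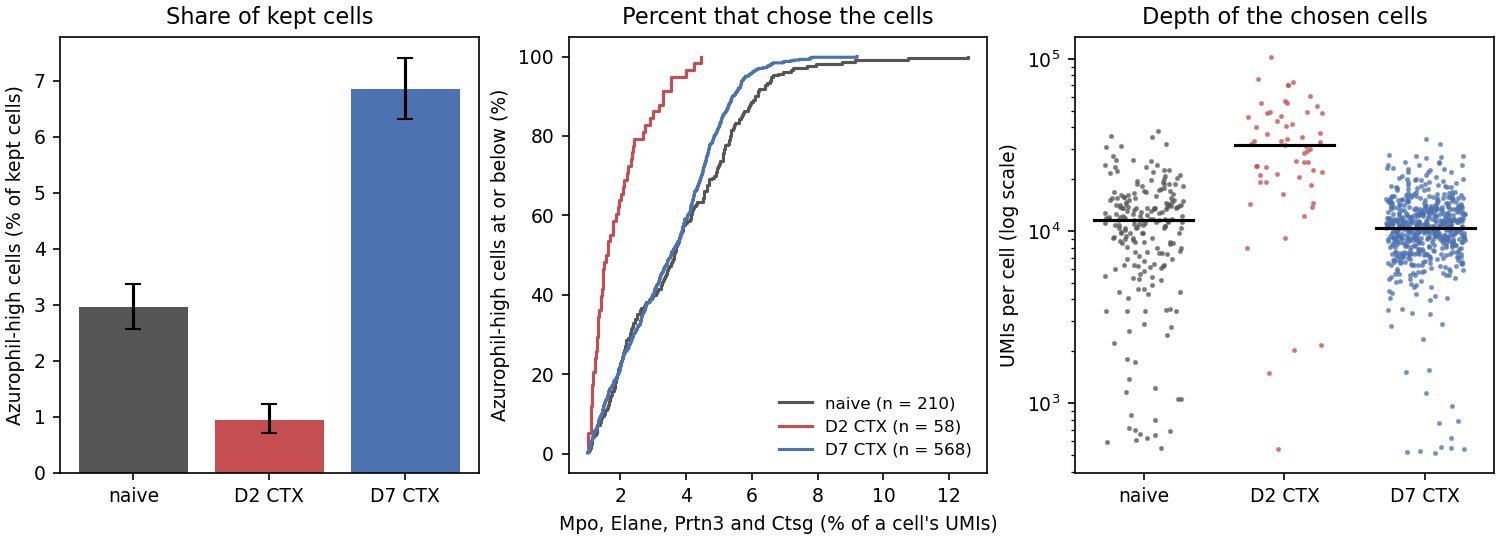
Share of kept cells (%, bars with exact 95% intervals), the percent of each cell's UMIs from Mpo, Elane, Prtn3 and Ctsg as a cumulative curve, and UMIs per cell on a log scale with the median as a line, in azurophil-high cells of naive, D2 CTX and D7 CTX BM. The D2 CTX cells were the fewest (58), lay nearest the 1% limit with a median of 1.59%, and held the most UMIs with a median of 31451.

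The D2 CTX cells lay closest to the limit of the rule. The rule genes made up a median of 3.63% of a cell's UMIs in naive, 1.59% at D2 CTX and 3.54% at D7 CTX. Cells between 1% and 2% were 22.9% of the azurophil-high cells in naive (48 cells), 63.8% at D2 CTX (37 cells) and 21.5% at D7 CTX (122 cells), and those at 4% or more numbered 88, 2 and 232. The lowest member had 1.02% in naive, 1.02% at D2 CTX and 1.002% at D7 CTX, and the highest cell outside 0.977%, 0.983% and 0.993%. Between 0.5% and 1% lay 80 further cells in naive, 49 at D2 CTX and 112 at D7 CTX.

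The same D2 CTX cells were the deepest. Their median was 31451 UMIs and 4507.5 genes, against 11502 UMIs and 2442.5 genes in naive and 10450 UMIs and 2213.5 genes at D7 CTX. B lineage cells beside them had medians of 2604 UMIs at D2 CTX, 2933.5 in naive and 8151 at D7 CTX, so the azurophil-high cells were 12.1 times as deep at D2 CTX, 3.92 times in naive and 1.28 times at D7 CTX. Rule genes numbered a median of 571 UMIs per cell at D2 CTX, 375 in naive and 342 at D7 CTX. Per cell, then, the D2 CTX cells held more UMIs of Mpo (median 170 against 54.5 in naive) and of Prtn3 (161.5 against 140.5). Elane had a lower median (125 against 158.5) but a higher mean (181 against 172). The rule genes together made up a lower percent of all UMIs at D2 CTX. Ribosomal protein genes had a median of 7248.5 UMIs per cell at D2 CTX, 2696 in naive and 2585.5 at D7 CTX. The median of mitochondrial UMIs was 5.26% in naive, 6.09% at D2 CTX and 5.48% at D7 CTX.

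Elane and Prtn3 were lower at D2 CTX than in naive cells and Mpo was not. UMIs were summed over the azurophil-high cells of each library and scaled to a total of 1000000 (CPM). This scale is not divided by transcript length, so levels are compared between libraries and not between genes. Where 3 values stand together, the first is that of naive, the next that of D2 CTX and the last that of D7 CTX. Elane was at 14702 CPM in naive, 5364 at D2 CTX and 12277 at D7 CTX, Prtn3 at 12878, 5312 and 13462, Ctsg at 2586, 1862 and 2868, and Mpo at 5297, 5466 and 4876. These values were used by the rule and are given as a description. They move with the distance of the cells from the limit: between 2% and 4% of rule genes Elane was at 11819 CPM in naive and 10549 at D2 CTX and Prtn3 at 10594 and 8471, while between 1% and 2% Elane was at 6168 and 3158 and Prtn3 at 5346 and 3991. In the B lineage cells, which should lack it, Elane was at 84.5, 62.3 and 70.3 CPM.

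Ms4a3, a membrane protein of the granulocyte and monocyte progenitors that the rule did not use, was at 1481 CPM in naive, 966 at D2 CTX and 1407 at D7 CTX. Within bands of rule genes Ms4a3 was not lower at D2 CTX than in naive. Its levels in naive and D2 CTX were 702 and 715 CPM between 1% and 2%, and 1279 and 1538 between 2% and 4%. At 4% or more they were 2170 and 2510, the latter from 2 cells. To compare shares of cells at 1 depth, each cell was thinned at random to 2000 UMIs, for which 18 naive cells, 2 taken after 2 days and 13 taken after 7 days were too shallow. Ms4a3 was then found in 86.5% of the azurophil-high cells in naive, in 73.2% after 2 days and in 84.5% after 7 days, and in 2.53%, 0.90% and 1.32% of B lineage cells. Without thinning it was found in 92.9%, 93.1% and 96.0%.

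Genes that mark the progenitors upstream differed in how many of the cells held them. Kit, the stem cell factor receptor, was found at equal depth in 6.77% of the azurophil-high cells in naive, in 3.57% after 2 days and in 4.14% after 7 days, and Cd34 in 3.65%, 5.36% and 1.80%. B lineage cells had Kit in 0.72%, 1.22% and 3.51%, the last near the D7 CTX share of the azurophil-high cells. Without thinning, Kit was found in 27.6%, 43.1% and 20.8% and Cd34 in 13.8%, 48.3% and 5.28% of the azurophil-high cells. The cytokine receptor Flt3 had a UMI in 2 of 210 cells in naive, in 1 of 58 after 2 days and in 11 of 568 after 7 days without thinning, and in 1.84%, 1.86% and 6.72% of B lineage cells. The summed level of 17 early progenitor genes was 353 CPM in naive, 546 at D2 CTX and 308 at D7 CTX, under the 1002, 791 and 917 CPM of the B lineage cells. Whether B lineage cells express Kit, Flt3 and other genes of this list themselves was not tested. They therefore cannot serve as a background for these genes. The most abundant gene of the list in the azurophil-high cells of each library was Myb, with a UMI in 136 of 210 cells in naive, in 55 of 58 after 2 days and in 416 of 568 after 7 days. The 10 genes of early neutrophil commitment summed to 1656 CPM in naive, 1181 at D2 CTX and 1764 at D7 CTX, against 299, 288 and 378 in B lineage cells. Of them Cebpe, a transcription factor needed for specific granules, was found at equal depth in 45.3% of the cells in naive, in 41.1% after 2 days and in 42.3% after 7 days, against 2.59%, 1.86% and 2.63% of B lineage cells, and without thinning in 76.7%, 84.5% and 81.2%. Gfi1, a repressor that acts in the same lineage, was found at equal depth in 9.38%, 3.57% and 11.4% and without thinning in 46.2%, 62.1% and 41.5%. Since the members were chosen by granule genes and held markers of more than 1 stage, they are called by the genes of the rule and not by the name GMP. A share of cells with a UMI rises with depth and does not count the cells that express a gene.

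The azurophil-high cells were of more than 1 kind. Cells with the specific granule genes Camp, Ngp, Ltf, Lcn2 and Chil3 under 0.5% of their UMIs made up 67.1% (60.3 to 73.5) of the azurophil-high cells in naive, 77.6% (64.7 to 87.5) after 2 days and 57.6% (53.4 to 61.7) after 7 days. The rest, 69 naive, 13 D2 CTX and 241 D7 CTX cells, had medians of 5.71%, 6.60% and 3.96% of UMIs from those genes and carried azurophil and specific granule transcripts together. Rule genes were lower in them, with a median of 2.30% of UMIs in naive, 1.42% at D2 CTX and 2.53% at D7 CTX, against 4.52%, 1.63% and 4.27% in the cells under 0.5%.

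Irf8, a transcription factor of the monocyte and dendritic lineage, marked a further kind. It had a UMI in 25 of 210 cells in naive, in 31 of 58 after 2 days and in 103 of 568 after 7 days, of which 1, 1 and 18 were at 0.5% or more of specific granule genes. At equal depth Irf8 was found in 4.69% of the cells in naive, in 30.4% after 2 days and in 12.1% after 7 days. B lineage cells, which use Irf8 themselves, had it in 33.0%, 47.1% and 33.8% and cannot serve as its background. Of the 31 D2 CTX cells with an Irf8 UMI 23 lay between 1% and 2% of rule genes, against 10 of 25 in naive. Irf8 was at 122 CPM in naive and 267 at D2 CTX in that band, but at 148 and 85.1 between 2% and 4%. In the cells with an Irf8 UMI F13a1, coagulation factor XIII of monocytes, was at 457 CPM in naive, 584 at D2 CTX and 551 at D7 CTX, against 31.7, 21.4 and 26.6 CPM in those without. Ccr2, the chemokine receptor of classical monocytes, was at 229, 133 and 210 CPM against 3.90, 5.35 and 3.68. Fcnb, a ficolin of neutrophil precursors, went the other way, with 34.4, 6.59 and 106 CPM in cells with an Irf8 UMI and 847, 713 and 1021 in those without. Elane was at 6669, 3584 and 6350 CPM in cells with Irf8 and at 16297, 8251 and 13940 in those without, while Mpo was at 5858, 5864 and 5541 against 5186, 4820 and 4689, and both were used by the rule. The cells with an Irf8 UMI were deeper, with medians of 15040, 37129 and 12121 UMIs against 11150, 25130 and 10125.

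**Figure D2:**
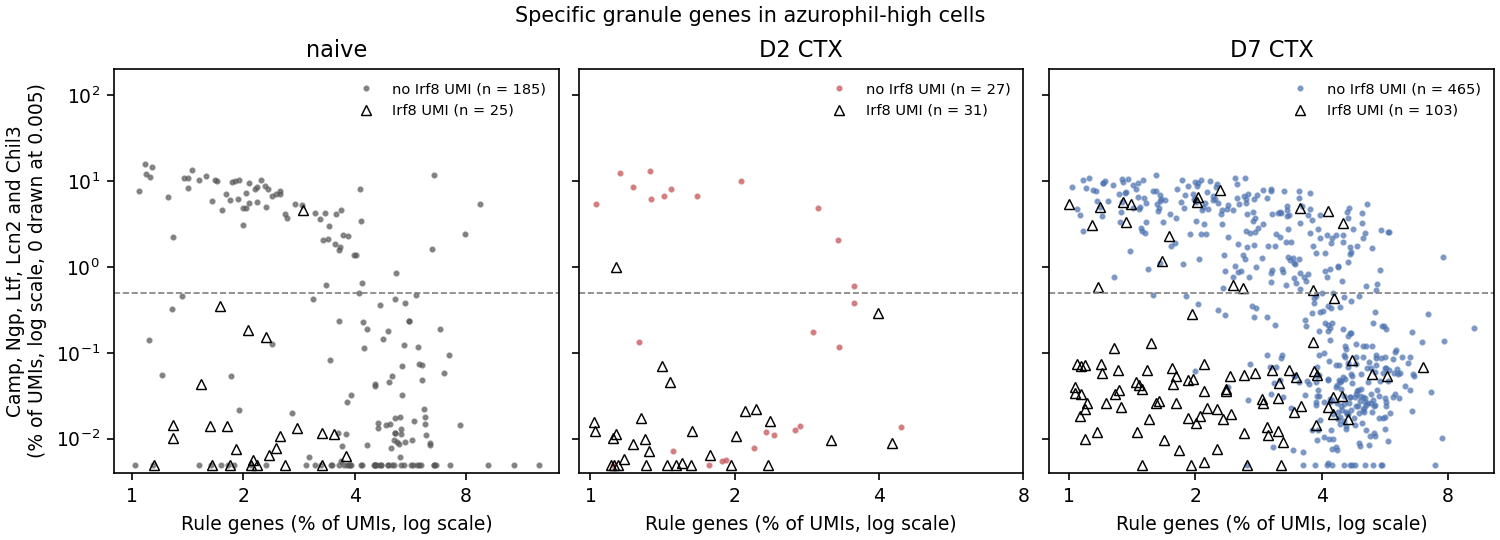
Each point is an azurophil-high cell of naive, D2 CTX or D7 CTX BM, with the percent of its UMIs from Mpo, Elane, Prtn3 and Ctsg (log scale) against the percent from Camp, Ngp, Ltf, Lcn2 and Chil3 (log scale, 0 drawn at 0.005), and open triangles for cells with an Irf8 UMI. The dashed line is 0.5%, and of the cells with Irf8 24 of 25 lie under it in naive, 30 of 31 at D2 CTX and 85 of 103 at D7 CTX.

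Targets of p53 stood out at D2 CTX. Genes with at least 100 UMIs over the cells compared and at least 50 CPM in 1 of the libraries were compared, with 1 CPM added to each level. Among 2657 genes, 219 (8.24%) were higher by 1 log2 unit or more at D2 CTX than in naive azurophil-high cells and 40 (1.51%) lower by as much, around a median of 0.26 over all of them, and 69.5% were above 0. With the rule at 2% the number of genes higher was 43, and without the cells that hold an Irf8 UMI it was 51. Without the filter, of 13481 genes with a UMI in either library, 68.0% were above 0 and 1813 (13.4%) higher by 1 or more. Scaling by the median of gene ratios, in place of the total, moved that median to -0.07 and gave 81 genes higher and 96 lower. Of the 219, 73 were at or below their level in B lineage cells of the D2 CTX library, and of the 40, 8 in the naive library.

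Of 21 p53 targets with a UMI, 20 were above 0 at D2 CTX and 19 at least 1 log2 unit higher, beside the 68.0% and 13.4% of all genes with a UMI. Only 8 passed the filter, with a median of 1.87, and 6 of these 8 passed through the D2 CTX library alone, where they had to be higher. The other 2 had at least 50 CPM in naive cells and were also at least 1 unit higher. Their summed level was 848 CPM in naive, 2928 at D2 CTX and 687 at D7 CTX, beside 1214, 1985 and 1112 CPM in B lineage cells. Rps27l, a ribosomal protein paralog, made up 592, 1449 and 426 CPM of it, and without this gene the sum was 256, 1479 and 261 CPM, beside 836, 1546 and 669 in B lineage cells. Phlda3, which holds back Akt, had 2 UMIs in 1 of 210 naive cells, 150 UMIs in 42 of 58 D2 CTX cells and 2 UMIs in 1 of 568 D7 CTX cells. Cdkn1a was at 3.66 CPM in naive, 196 at D2 CTX and 6.70 at D7 CTX, with a UMI in 8, 52 and 29 cells and a log2 ratio of 5.40 (4.80 to 6.88). Ccng1 was at 21.6, 326 and 18.2 CPM, a log2 ratio of 3.86 (3.51 to 4.35), and the cell death gene Bax at 105, 462 and 87.6 CPM, a log2 ratio of 2.12 (1.93 to 2.34). Mdm2, the ligase that removes p53, was at 22.4, 70.9 and 25.2 CPM, under the 86.2 CPM of B lineage cells at D2 CTX. All 5 genes were high at D2 CTX alone, with naive and D7 CTX levels near each other.

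The p53 targets were spread over the D2 CTX cells. At 2000 UMIs per cell, 2 or more UMIs of the list were found in 96 of 192 azurophil-high cells in naive (42.7 to 57.3%), in 100% (93.6 to 100) after 2 days and in 35.1% (31.2 to 39.3) after 7 days, with medians of 1.5, 5 and 1 UMIs. In B lineage cells the shares were 70.4%, 80.1% and 66.7%. Without Rps27l, left out after the values had been seen, the shares were 9.38% (5.65 to 14.4), 80.4% (67.6 to 89.8) and 10.1% (7.71 to 12.9) in azurophil-high cells and 57.6%, 74.4% and 47.8% in B lineage cells. At the same depth Cdkn1a was found in 1.56% of the azurophil-high cells in naive, in 35.7% after 2 days and in 1.44% after 7 days and in 3.30%, 4.95% and 6.14% of B lineage cells. Cells with and without an Irf8 UMI both held it: Cdkn1a was at 217 CPM in the first and 163 CPM in the second at D2 CTX, against 9.83 and 2.44 in naive. The median of the list was 1.48 in cells with at least 2 UMIs of Kit, 2.58 in cycling cells rich in specific granule genes (the neutrophil precursor gate) and 1.03 in B lineage cells, so a higher level of p53 targets at D2 CTX was found in those cells as well. With Cd3d not used in the T/NK gate the precursor median was 2.36.

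**Figure D3:**
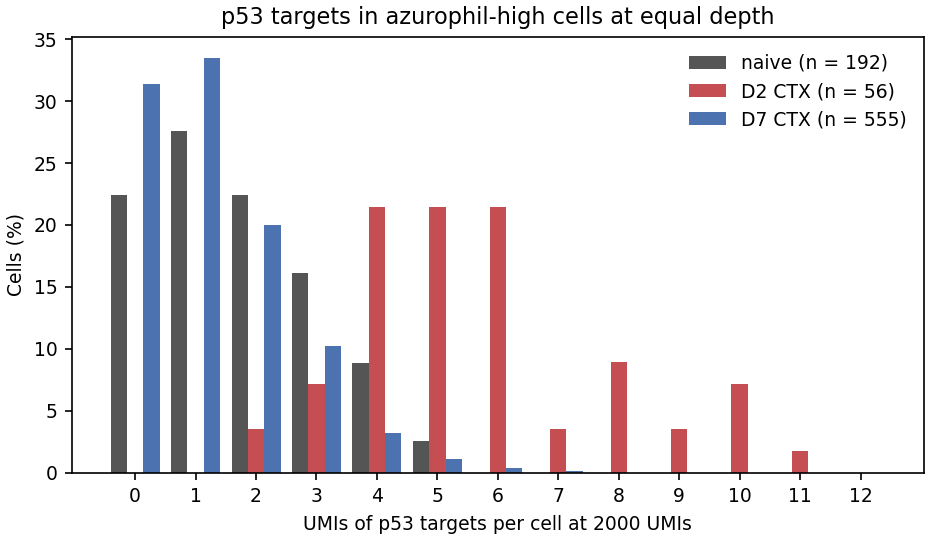
Percent of azurophil-high cells (bars) with each number of UMIs of 21 p53 targets after each cell was thinned to 2000 UMIs, in naive (192 cells), D2 CTX (56 cells) and D7 CTX BM (555 cells). All D2 CTX cells held at least 2 UMIs, with a median of 5, against medians of 1.5 in naive and 1 at D7 CTX.

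Most genes of DNA crosslink repair were above 0 at D2 CTX. Of 19 genes with a UMI 18 were above 0 and 7 at least 1 log2 unit higher, beside 68.0% and 13.4% of all genes with a UMI. Only 2 passed the filter, both through the D2 CTX library alone. Mgmt, which takes alkyl groups off guanine, was at 19.1 CPM in naive, 91.3 at D2 CTX and 17.7 at D7 CTX, a log2 ratio of 2.20 (1.78 to 2.75). Of 13 genes of the BCL2 family with a UMI, 11 were above 0 and 5 at least 1 unit higher, and of the 4 that passed the filter Bax alone was at least 1 higher. This list overlaps the p53 list: Bax held 906 of its 1727 UMIs at D2 CTX, and Bbc3 and Pmaip1 were at 1.63 and 1.22 CPM in naive and 19.9 and 17.9 at D2 CTX. The survival gene Bcl2l1, at 10.2 and 6.63 CPM, was 1 of only 2 genes of the BCL2 family list below 0.

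Chaperones and nucleolar genes lay above 0 at D2 CTX, and some passed the limit of 1 log2 unit. All 14 compared ER chaperones were above 0 and 4 at least 1 unit higher, with a median of 0.82, beside 69.5%, 8.24% and 0.26 for all compared genes. Of the 14, 1 passed the filter through the D2 CTX library alone, and 3 of the other 13 were at least 1 higher. Hspa5 (BiP) was at 454 CPM in naive, 1103 at D2 CTX and 275 at D7 CTX, and the calcium-binding chaperone Calr at 871, 1789 and 429. Of 6 cytosolic and mitochondrial heat shock genes all were above 0 and 4 at least 1 higher, with a median of 1.34. Of the 6, 1 passed through the D2 CTX library alone, and 3 of the other 5 were at least 1 higher. Hsp90aa1, a cytosolic chaperone, was at 540, 1592 and 346 CPM. All 10 genes of ribosome biogenesis were above 0 and 3 at least 1 higher, with a median of 0.86. Of the 10, 2 passed through the D2 CTX library alone, and 2 of the other 8 were at least 1 higher. Nucleolin (Ncl) was at 613, 1032 and 326 CPM. The ER chaperone median was 0.91 in Kit cells, 0.72 in the precursor gate and 0.79 in B lineage cells, whereas the ribosome biogenesis median was -0.13, 0.04 and -0.04 there. With Cd3d not used in the T/NK gate the precursor medians were 0.501 for ER chaperones and -0.48 for ribosome biogenesis. These medians depend on which cells are counted: over azurophil-high cells without an Irf8 UMI ribosome biogenesis was at 0.26, heat shock at 0.56 and ER chaperones at 0.64, while the median of all compared genes was 0.01 in place of 0.26. Ribosomal protein genes and oxidative phosphorylation were at -0.01 and 0.04.

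G2/M phase genes lay mostly above 0 at D2 CTX and S phase genes near 0. Of 35 G2/M phase genes 33 were above 0, with a median of 0.47, beside 69.5% and 0.26 for all compared genes, and 2 were at least 1 log2 unit higher, beside 8.24%. Of the 35, 6 passed the filter through the D2 CTX library alone. Of 24 S phase genes 15 were above 0 and 2 at least 1 higher, but 2 of the 24 passed through the D2 CTX library alone and 1 of the other 22 was at least 1 higher. Their median of 0.09 lay under that of all compared genes. Top2a, which untangles DNA, was at 249 CPM in naive, 393 at D2 CTX and 186 at D7 CTX, and was found at equal depth in 35.4%, 60.7% and 22.7% of cells and without thinning in 65.2%, 91.4% and 54.8%. G2/M genes with 5 or more UMIs at equal depth were found in 79.2% (72.7 to 84.7) of the cells in naive, in 100% (93.6 to 100) after 2 days and in 69.0% (65.0 to 72.8) after 7 days. The G2/M median was 0.37 in Kit cells, so a shift above 0 was found there as well. It was 0.10 in the precursor gate, which cycling genes helped to choose. In B lineage cells the G2/M median was -1.66 and Top2a was at 754 CPM in naive and 171 at D2 CTX. Hist1h2ap, a replication histone, was at 40.7, 294 and 39.2 CPM and is one of several near-identical copies between which reads can be split.

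Some monocyte lineage genes were higher and some granule genes lower at D2 CTX, and the medians of both lists turned with the cells that were counted. Of 7 compared monocyte genes 3 were at least 1 log2 unit higher, with a median of 0.93, beside 8.24% and 0.26 for all compared genes. Of the 7, 2 passed the filter through the D2 CTX library alone, and 2 of the other 5 were at least 1 higher. Of all 15 with a UMI 14 were above 0 and 6 at least 1 higher, beside 68.0% and 13.4% of all genes with a UMI. F13a1 was at 102 CPM in naive, 370 at D2 CTX and 142 at D7 CTX, a log2 ratio of 1.84 (1.65 to 2.07), and Irf8 at 87.5, 215 and 135 CPM. Between 2% and 4% of rule genes F13a1 was at 140 CPM in naive and 161 at D2 CTX, and Irf8 at 148 and 85.1. F13a1 was found at equal depth in 9.90%, 39.3% and 12.6% of cells, against 5.18%, 2.38% and 3.07% of B lineage cells, and without thinning in 29.0%, 67.2% and 31.5%. With only the cells at 2% or more of rule genes the median of the monocyte genes turned to -0.29, over 5 genes. Without the cells that hold Irf8 it was 0.04, over 2 genes. Irf8 is itself in this list, so that setting lowers the list by construction and decides nothing about it. In cells under 0.5% of specific granule genes the log2 ratio of F13a1 was 1.58 (1.37 to 1.80), and in the rest 3.03 (2.12 to 4.28). Ly6c2 went the other way there, at -0.29 and -0.56. Of 11 genes of specific and gelatinase granules 9 were below 0 and 2 at least 1 unit lower, with a median of -0.73, beside 30.5%, 1.51% and 0.26 for all compared genes. Pglyrp1, a peptidoglycan binding protein of these granules, was at 1214 CPM in naive, 503 at D2 CTX and 1239 at D7 CTX. That median also turned, to 0.26 at 2% or more of rule genes and 0.16 without cells with Irf8. S100a9, a subunit of calprotectin, was at 48725, 15253 and 61966 CPM, a log2 ratio of -1.68 (-1.69 to -1.66), and its D2 CTX level did not exceed the 15794 CPM of B lineage cells. Its log2 ratio was -0.95 in cells with an Irf8 UMI and -0.68 in those without, under 1 unit lower in each. Fcnb was at 712, 276 and 821 CPM, with a D2 CTX over naive log2 ratio of -2.22 in cells with an Irf8 UMI and -0.25 in those without.

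Further genes led the comparison. After Phlda3, Cdkn1a and Ccng1 the highest at D2 CTX were the noncoding genes Gm10076 at 84.7 CPM in naive and 1193 at D2 CTX and Gm42047 at 7.33 and 71.9, then Hist1h2ap, the heat shock protein Hsph1 at 11.8 and 85.7, the phosphatase Ptp4a3 at 24.4 and 155, the exocyst subunit Exoc4 at 19.1 and 115, and Usp50 at 14.7 and 83.1. Gm42047, Ptp4a3 and Exoc4 lay under their B lineage level at D2 CTX, and all 10 but Ptp4a3 were also at least 1 log2 unit higher in B lineage cells at D2 CTX. The lowest was Prg2, an eosinophil granule protein, of which 1 naive cell held 286 of 298 UMIs. Rnaset2a, a ribonuclease with a near-identical copy, followed with 104 CPM in naive and 19.4 at D2 CTX, then the lectin Mgl2 with 69.2 and 14.3 and the cold-shock protein Cirbp with 87.1 and 20.9. Olfm4, Dlg2, S100a9, Rflnb and the leukotriene receptor Ltb4r1 lay between -1.82 and -1.49 on the log2 scale. Olfm4 had its 36 UMIs at D2 CTX in 7 cells, 41.7% of them in 1 cell, and turned to 0.40 with the rule at 2%. S100a9 was at -0.95 in cells with an Irf8 UMI and at -0.68 in those without. It was at -1.85 in cells under 0.5% of specific granule genes and at -1.02 in the rest. Rnaset2a was lower by a like amount in B lineage cells, at -2.04.

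**Figure D4:**
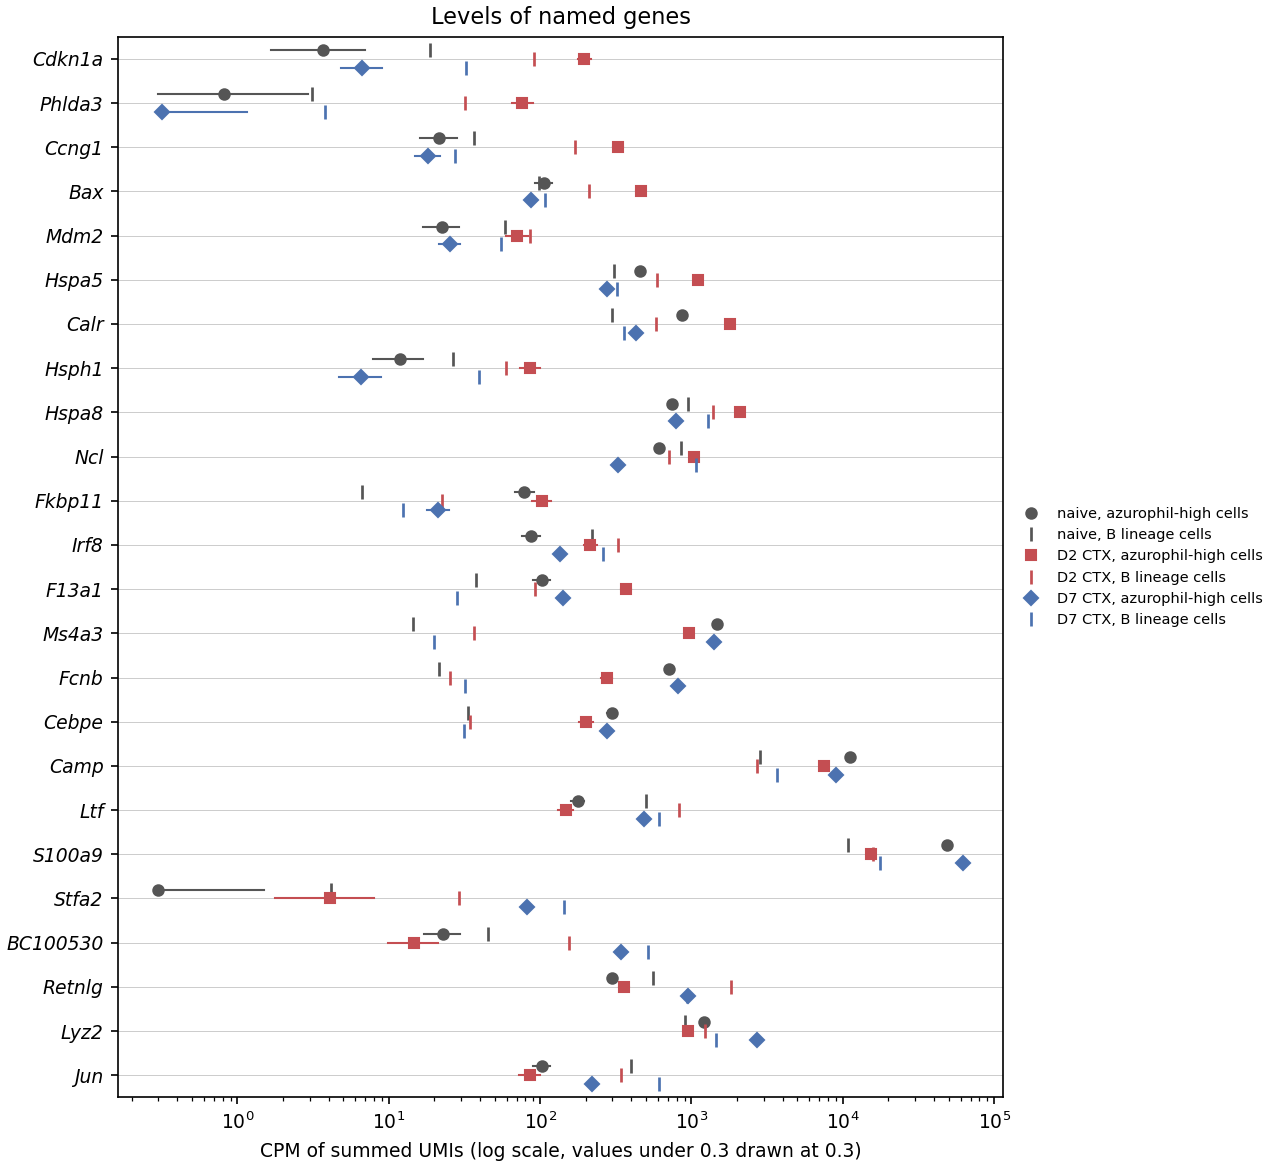
Levels of 24 named genes in azurophil-high cells (filled symbols with exact 95% intervals, CPM on a log scale, values under 0.3 drawn at 0.3) and in B lineage cells of the same library (vertical ticks), in naive, D2 CTX and D7 CTX BM. Cdkn1a at D2 CTX (196 CPM) lies above both other libraries (3.66 and 6.70) and above its B lineage tick, while S100a9 at D2 CTX (15253) lies at its tick.

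At D7 CTX the azurophil-high cells were close to the naive cells. Among 2174 genes, 22 (1.01%) were higher by 1 log2 unit or more and 12 (0.552%) at least 1 lower, around a median of -0.12, and 65.6% were below 0. Without the filter, of 13983 genes with a UMI, 43.0% were above 0 and 238 (1.7%) higher by 1 or more. Of the 22, 13 were at or below their B lineage level in the D7 CTX library, and of the 12, 7 in the naive library.

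Stefin A genes, a cluster of cysteine protease inhibitors on chromosome 16, were the highest at D7 CTX. Of all 8, each was above 0 and 7 at least 1 log2 unit higher, beside 43.0% and 1.7% of all genes with a UMI. The 4 that passed the filter did so through the D7 CTX library alone, where they had to be higher. Their summed level was 37.0 CPM in naive, 35.2 at D2 CTX and 588 at D7 CTX. Stfa2 had 0 UMIs in naive, 8 at D2 CTX and 516 at D7 CTX, at least 67.4-fold higher at D7 CTX against a floor of 3 UMIs over the naive cells. BC100530 was at 22.8, 14.8 and 341 CPM. B lineage cells showed the same genes at 93.8, 432 and 1026 CPM in sum, above the azurophil-high cells in each library, and Stfa2 was found in 35 of 568 D7 CTX cells. At equal depth BC100530 was found in 1.56%, 3.57% and 11.2% of azurophil-high cells and in 2.75%, 10.5% and 12.3% of B lineage cells. The genes of this family are near-identical, so reads can be split between them, and the part of free RNA in these values was not tested.

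Several late granule genes were higher at D7 CTX, in part near the B lineage level, while Camp, which held the most UMIs of them in naive cells, was lower in the sum over all azurophil-high cells. Of 13 specific and gelatinase granule genes 11 were above 0 and 5 at least 1 log2 unit higher, with a median of 0.46, beside 34.4%, 1.01% and -0.12 for all compared genes. Of the 13, 2 passed the filter through the D7 CTX library alone. Their summed level was 22194 CPM in naive, 13589 at D2 CTX and 23635 at D7 CTX, a log2 ratio of 0.09 at D7 CTX over naive. Camp, the cathelicidin, was at 11219, 7542 and 9050 CPM, a log2 ratio of -0.31 (-0.33 to -0.29). In cells under 0.5% of specific granule genes its ratio was 0.65 (0.44 to 0.87), and in the rest -0.74 (-0.76 to -0.72). Camp is among the genes that made this split. Ltf, lactoferrin, was at 177 CPM in naive, 147 at D2 CTX and 488 at D7 CTX and at 501, 832 and 609 in B lineage cells, and Mmp8, neutrophil collagenase, at 19.5, 36.2 and 80.4, with 89.2 in B lineage cells at D7 CTX. Anxa1 was at 309, 371 and 752 CPM, above the 412 of B lineage cells at D7 CTX, and Chil3 at 118, 178 and 251 against 139. Lyz2, lysozyme, was at 1205, 944 and 2693 CPM, a log2 ratio of 1.16 (1.10 to 1.22), and was found at equal depth in 49.5% of the cells in naive, in 44.6% after 2 days and in 78.0% after 7 days, against 19.1%, 26.5% and 35.1% of B lineage cells, and without thinning in 70.0%, 87.9% and 95.6%. Ly6g, Retnlg, Klf2, Ifitm6 and the stefin A gene Gm5483 were also among the 10 highest, between 1.58 and 2.83. Of these, Retnlg at 956 CPM was near the 930 CPM of B lineage cells at D7 CTX, and the other 4 lay under their B lineage level. The azurophil genes outside the rule had a median of 0.28.

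Immediate early genes lay above 0 at D7 CTX. All 10 compared were above 0 and 4 at least 1 unit higher, but 5 of the 10 passed the filter through the D7 CTX library alone, and 1 of the other 5 was at least 1 higher. Of all 14 with a UMI 13 were above 0 and 6 at least 1 higher, beside 43.0% and 1.7% of all genes with a UMI. The median of the 10 was 0.94, against 1.504 in the 26 Kit cells, 0.20 in the precursor gate and 0.05 in B lineage cells. Jun was at 102 CPM in naive, 85.2 at D2 CTX and 221 at D7 CTX, Ier3 at 31.8, 15.8 and 72.3, and Dusp1, a phosphatase that stops MAP kinases, at 21.6, 68.3 and 51.4. Each library was prepared once, so condition and preparation cannot be told apart. With each cell given equal weight the median was 0.32, and without cells with Irf8 it was 0.35.

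Genes of protein folding, nucleoli and nucleotide supply lay below 0 at D7 CTX over naive, and nearly all by less than 1 log2 unit. Over all compared genes 65.6% were below 0, with a median of -0.12. Of 13 ER chaperones 12 were below 0 and 1 at least 1 unit lower, with a median of -0.64, and Calr was at -1.02 (-1.11 to -0.94). All 8 genes of ribosome biogenesis and all 9 of nucleotide supply were below 0, with medians of -0.47 and -0.41, and none was at least 1 lower. Of 69 oxidative phosphorylation genes 62 were below 0, with a median of -0.28. The same lists, in that order, had medians of -0.17, -0.36, -0.08 and -0.13 in the precursor gate. In Kit cells they were 0.23, -0.27, -0.06 and -0.25, and in B lineage cells 0.28, 0.42, 0.40 and 0.05. Medians below 0 were thus also found in those 2 gates, except for ER chaperones in Kit cells. Fkbp11, a folding factor of the secretory pathway, was at 78.6 CPM in naive, 102 at D2 CTX and 21.2 at D7 CTX, a log2 ratio of -1.84 (-2.22 to -1.56). Hmgn1, Rpn1, the RNA helicase Ddx21, Mif, B930036N10Rik, the heme synthesis enzyme Alad and Spata7 followed, between -1.30 and -0.99. S phase genes were below 0 in 21 of 22 and G2/M genes in 21 of 29, with medians of -0.29 and -0.18, and none was at least 1 lower. Genes that passed the filter through the naive library alone, and so had to be lower, were 2 of the ER chaperones, 2 of ribosome biogenesis, 2 of nucleotide supply, 5 of S phase and 4 of G2/M. The G2/M count and median were near those of all compared genes. The p53 targets were at -0.26 over the 3 that passed the filter.

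**Figure D5:**
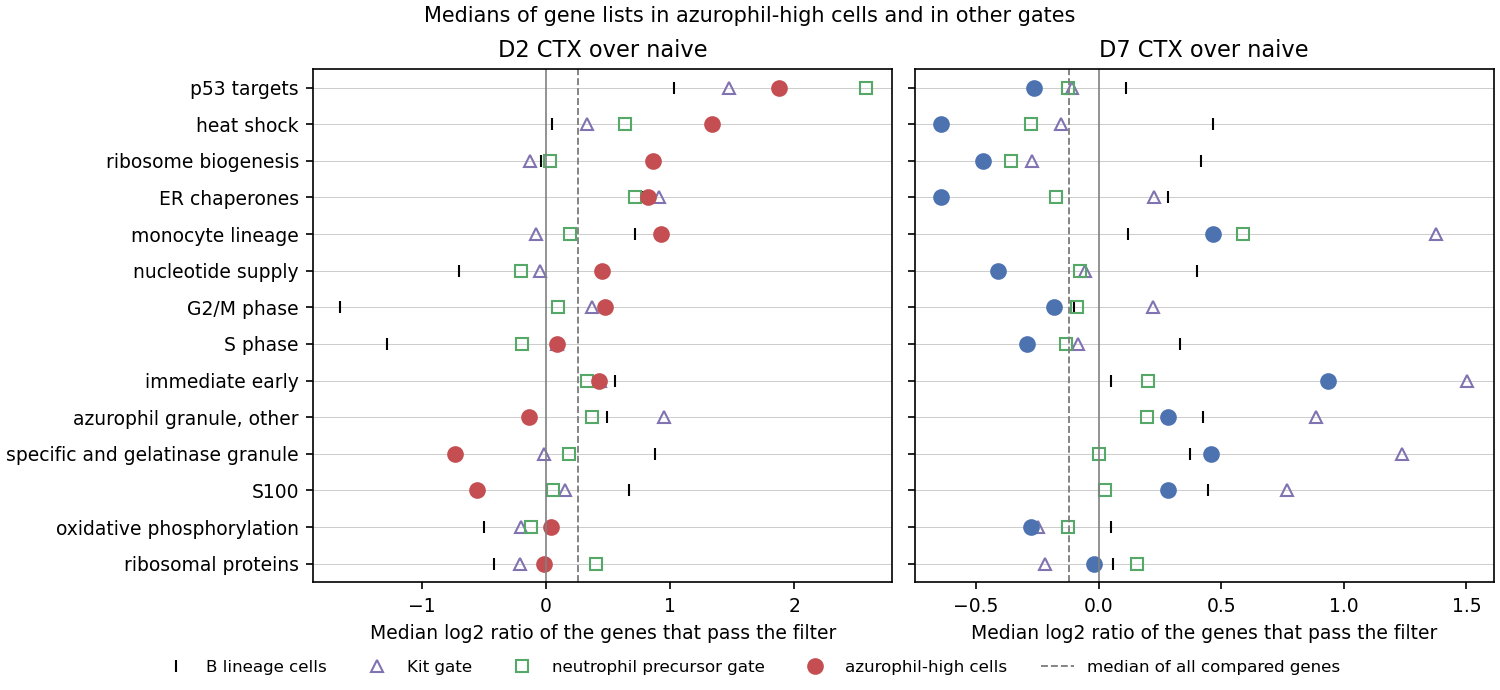
Median log2 ratio of the genes of each list that passed the filter, D2 CTX over naive on the left and D7 CTX over naive on the right, in azurophil-high cells (filled circles), cells with at least 2 UMIs of Kit (open triangles), the neutrophil precursor gate (open squares) and B lineage cells (ticks), with the median of all compared genes as a dashed line. The p53 targets are at 1.87 in the left panel and -0.26 in the right, and ER chaperones at 0.82 and -0.64.

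Set directly against D2 CTX, the D7 CTX cells were lower in many genes. Among 2682 genes, 95 (3.54%) were higher by 1 log2 unit or more at D7 CTX and 520 (19.4%) at least 1 lower, around a median of -0.41. Scaling by the median of gene ratios gave 235 higher and 174 lower around 0.09, so the split between higher and lower rests on the scaling. Of all 21 p53 targets with a UMI 18 were at least 1 lower, beside 2512 of all 14065 genes with a UMI. Of the 9 that passed the filter 8 were, with a median of -2.16, but 6 of the 9 passed through the D2 CTX library alone, where they had to be higher, and 2 of the other 3 were at least 1 lower. All 10 compared genes of ribosome biogenesis, all 6 heat shock genes and 11 of 14 ER chaperones were at least 1 lower, with medians of -1.44, -1.86 and -1.48. Of those with 50 CPM or more at D7 CTX too, 6 of 6, 5 of 5 and 8 of 11 were. The lowest were Phlda3, Cdkn1a, Ccng1, Hsph1 and Usp50. The highest were Stfa3, which had 0 UMIs at D2 CTX and was at least 33.4-fold higher against a floor of 3 UMIs over the D2 CTX cells, BC100530, Stfa2, the cytokine gene Tslp at 21.2 CPM in naive, 5.61 at D2 CTX and 50.9 at D7 CTX, and Rnaset2a. Specific and gelatinase granule genes were above 0 in 12 of 12 and at least 1 higher in 8, with a median of 1.21, beside 27.8%, 3.54% and -0.41 for all compared genes. Of the 12, 3 passed the filter through the D7 CTX library alone, and 6 of the other 9 were at least 1 higher. This comparison shares its libraries with the other two.

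Among markers of other cell types, Nkg7 and Vcam1 were found in many azurophil-high cells, and single cells held most UMIs of the plasma cell genes at D2 CTX and of the eosinophil gene Prg2 in naive. The 9 B lineage genes summed to 161 CPM in naive, 63.7 at D2 CTX and 52.0 at D7 CTX, against 8895, 7633 and 5777 CPM in B lineage cells. The 6 T cell genes summed to 26.1, 7.14 and 31.4 CPM with Cd3e at 0 in all 3 libraries, and Cd3d held most of it. The 10 erythroid genes summed to 615 CPM in naive, 19.9 at D2 CTX and 8.45 at D7 CTX, and 1 naive cell held 428 of the 881 UMIs of Hbb-bs. Hbb-bs had a UMI in 87 naive cells and was at 184 CPM without that cell, against 9.18 at D2 CTX and 5.26 at D7 CTX. The 7 eosinophil genes summed to 194, 13.8 and 13.9 CPM. The 6 plasma cell genes summed to 222, 7421 and 73.2 CPM, and 1 D2 CTX cell held 10123 of the 10228 UMIs of Igkc and 3804 of the 3930 of Ighm. Of the 6 NK cell genes Nkg7 made up nearly all of the 934, 406 and 888 CPM, and Ncr1 and Gzma were at 0 in all 3. Nkg7 had a UMI in 185 of 210 cells in naive, in 51 of 58 after 2 days and in 510 of 568 after 7 days, and the NK cell genes summed to 33.4, 48.9 and 24.1 CPM in B lineage cells. The 7 macrophage genes summed to 142, 97.9 and 227 CPM, of which Vcam1, an adhesion molecule, made up 133, 91.3 and 224 with a UMI in 121, 24 and 373 cells. In B lineage cells these 7 genes summed to 14.3, 108 and 76.7 CPM, which the D2 CTX level did not exceed. The 6 plasmacytoid dendritic genes summed to 54.1, 104 and 35.3 CPM, mostly Bst2, the 7 basophil and mast cell genes to 32.2, 11.7 and 5.10, and the 6 megakaryocyte genes to 9.36, 6.63 and 5.26. Doublets were not removed by a caller. Leaving out cells with B lineage or T cell markers left 198 naive, 46 D2 CTX and 533 D7 CTX azurophil-high cells. In these, 167 of the 219 genes higher at D2 CTX and 36 of the 40 lower passed the same limits. Leaving out the highest cell of each gene left 140 of the 219 and 36 of the 40.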

How the data were processed

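Count matrices of UMIs per gene and cell were deposited by the authors, who per the labels and methods made them from 10x Genomics 3′ libraries with Cell Ranger 3.1 and mm10 and used Seurat 5.0 afterwards. Reads of near-identical genes can be split between copies. The matrices hold 7649 (naive), 6608 (D2 CTX) and 8605 (D7 CTX) barcodes with 47086837, 34764874 and 68459527 UMIs, and the filters removed 545, 482 and 315 barcodes. Doublets were not called. UMIs were summed over the cells of each library and given as CPM. Log2 ratios used CPM + 1, while their exact conditional 95% intervals are those of the raw ratio, so that a ratio from few UMIs can lie outside its interval. Shares have Clopper-Pearson and levels exact Poisson intervals. Python 3.11.15, numpy 2.4.6, scipy 1.17.1, pandas 2.3.3 and matplotlib 3.10.9 were used. Sums, ratios and intervals were first tested on simulated data.

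The members and all 42 gene lists were chosen with earlier results of these data known. Named genes were the rule genes and Ms4a3, the 10 highest and 10 lowest ratios of D2 CTX and of D7 CTX over naive and the 5 highest and 5 lowest of D7 CTX over D2 CTX (immunoglobulin, hemoglobin, mitochondrial, Xist and Y-linked genes apart), and members of the lists. Some genes that this rule takes in are not reported here. Other cells were gated in the order B lineage, T/NK (2 UMIs), erythroid (10% of UMIs), Kit (2 UMIs) and neutrophil precursor (2% specific granule genes and 3 UMIs of cycling genes). The T/NK gate took in many cells through Cd3d alone, 1307, 1171 and 3347 cells against 268, 447 and 94 without Cd3d, so the share outside the gates and the precursor medians at D2 CTX are also given with Cd3d not used. Alternatives included other limits of the rule, scaling, filters and thinning depths, and, chosen after seeing the data, the gate without Cd3d, the p53 list without Rps27l, the highest cell of each gene left out, and cells without Irf8 or at 1 to 2% of rule genes.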

Additional observations from a re-analysis of the deposited data

Results flagged for a closer look

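The share of azurophil-high cells was below naive at D2 CTX, with a log2 ratio of -1.64, and above naive at D7 CTX, with 1.21, so the effects at the 2 times point in opposite directions. With 1 pooled library per time the difference was not tested.

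Cells that pass the same rule were also found in the sorted CD11b+Ly6Chi monocytes, outside the comparisons of whole BM. They were 35 of 1891 cells (1.85%, 1.29 to 2.56) in the naive and 105 of 2564 (4.10%, 3.36 to 4.94) in the CTX library, a log2 ratio of 1.15 (0.58 to 1.74, counting error only). In them Irf8 was at 736 and 613 CPM, F13a1 at 642 and 457, Fcnb at 136 and 401, and Camp at 0 and 283 CPM.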

How the results depend on the processing

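No paired analysis was possible because each condition has 1 pooled library. The limits are the 58 D2 CTX cells, the unknown spread between mice, and a rule on the share of UMIs that meets cells of unequal depth. The direction of the share kept its sign in every alternative. At 2% of rule genes the D2 CTX share over naive was -2.73. Outside the gates the D7 CTX share over naive was 0.97, and 0.59 with Cd3d not used. Where a value below differs from the report, the cause was not tested, except that the settings with no filter compare more genes.

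Of genes higher at D2 CTX than naive there were 43 at 2% of rule genes, 81 with scaling by the median of gene ratios, 1813 with no filter, 407 with the B lineage level subtracted, 140 without the highest cell of each gene and 51 without cells with Irf8. Of genes lower there were 76 at 0.5% and 26 at 2% of rule genes, 96 with the median of ratios, 477 with no filter and 128 with the B lineage level subtracted. For D7 CTX over naive, 12 genes were higher at 0.5% of rule genes, 238 with no filter, 11 with the mean of the cells' CPM, 52 with the B lineage level subtracted and 35 in the band of 1 to 2%, and 337 (no filter), 23 (mean of CPM), 128 (B lineage subtracted), 21 (band) and 27 (without Irf8) were lower. Scaling by the median of gene ratios gave 29 higher and 10 lower there. For D7 CTX over D2 CTX, 56 genes were higher at 2%, 235 with the median of ratios, 450 with no filter, 171 with the B lineage level subtracted, 147 in the band and 62 without Irf8, and 194 (2%), 174 (median of ratios), 2512 (no filter) and 194 (without Irf8) were lower.

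The medians of these lists turned. For D2 CTX over naive, monocyte lineage was -0.29 and specific granule genes 0.26 at 2% of rule genes, specific granule genes 0.16 without Irf8, and rule genes 0.14 and the 5 label markers 0.027 in the band of 1 to 2%. For D7 CTX over naive, aldehyde and glutathione enzymes were -0.058 with no filter. For D7 CTX over D2 CTX, monocyte lineage was 0.16 at 2%, 0.0035 with the B lineage level subtracted and 0.66 in the band, cytokine receptors -0.29 with no filter, interferon-stimulated genes 0.39 with the B lineage level subtracted, and rule genes -0.073 and label markers -0.39 in the band. At 2% of rule genes Olfm4 turned to 0.40 (D2 CTX over naive) and Prg2 to 0.43 (D7 CTX over naive). Of the list medians under all alternatives, 968 were within the spread, 137 moved and 13 turned, and of the named genes' ratios 512, 136 and 2. Of the shares of cells with a UMI under other thinning depths or none, 64 stayed within the interval and 152 moved, since these shares rise with depth.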
